A study of Mus musculus with 8 samples.

Results

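The genes described here are the IgG Fc receptors Fcgr1, Fcgr2b, Fcgr3 and Fcgr4, the neonatal Fc receptor Fcgrt, the signalling adaptors Fcer1g and Tyrobp, the receptor Trem2 and the enzymes Syk and Plcg2. They were taken by exact symbol from the deposited count table, and all 10 were found among its 35583 genes. The table covers microglia, the resident macrophages of the brain, sorted from hypothalamus tissue of wild-type young mice, 20 hours after the animals received plasma protein carrying a dye. Cells with dye (plasma-positive, 4 libraries) and cells without it (plasma-negative, 4 libraries) came from injected mice alike, so neither group is free of the injection. Libraries were made with Smart-seq2, a full-length method for small RNA amounts. The strain, the number of animals behind a library and the plasma dose are not given in the sources used here. Because no label says that the libraries came from separate animals, every p-value below measures only the spread between these samples, which may be technical.

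Fc receptors bind the constant stem of antibodies, and IgG is an abundant protein of plasma. Fcgr1, Fcgr3 and Fcgr4 are the activating IgG receptors of mouse myeloid cells and signal through the shared Fc receptor gamma chain, the product of Fcer1g. That chain and the related adaptor Tyrobp (DAP12, partner of Trem2) carry immunoreceptor tyrosine-based activation motifs, called ITAMs, which recruit the kinase Syk, and phospholipase C gamma 2 (Plcg2) acts further down. Fcgr2b has an inhibitory motif in its own tail and dampens the same pathway, while Fcgrt works inside the cell, where it returns IgG and albumin to the surface and spares them from lysosomes.

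The 3 activating IgG receptor genes sit at Fcgr1 chr3:96282909-96293969, Fcgr3 chr1:171051174-171064935 and Fcgr4 chr1:171018920-171029761 (mm10). The 250 bases before their RefSeq starts (GRCm38.p6, the same assembly) are shown because these receptors read the same antibody class and use the same adaptor, and differ in level; none of them passed the test between the groups. Each is written 5′ to 3′ on the gene's own strand, with matches to the searched motifs in capitals. The windows are chr3:96293970-96294219 on the minus strand for Fcgr1, chr1:171059404-171059653 on the minus strand for the first of the Fcgr3 starts, and chr1:171018676-171018925 on the plus strand for Fcgr4.
Fcgr1: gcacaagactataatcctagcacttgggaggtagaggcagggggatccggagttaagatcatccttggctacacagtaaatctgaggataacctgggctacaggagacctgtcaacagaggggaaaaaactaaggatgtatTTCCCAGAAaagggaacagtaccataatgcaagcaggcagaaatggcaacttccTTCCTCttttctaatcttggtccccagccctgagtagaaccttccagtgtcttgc
Fcgr3: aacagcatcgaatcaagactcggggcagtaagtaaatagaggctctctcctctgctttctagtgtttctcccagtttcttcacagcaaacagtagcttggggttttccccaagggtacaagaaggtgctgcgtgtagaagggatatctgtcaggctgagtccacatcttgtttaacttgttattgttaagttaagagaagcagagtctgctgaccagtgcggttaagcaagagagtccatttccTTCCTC
Fcgr4: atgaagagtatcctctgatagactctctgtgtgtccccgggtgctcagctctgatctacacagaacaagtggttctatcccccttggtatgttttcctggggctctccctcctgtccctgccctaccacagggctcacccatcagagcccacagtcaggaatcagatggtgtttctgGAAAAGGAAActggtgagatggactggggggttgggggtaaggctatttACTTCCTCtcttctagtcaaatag
All of these windows held the PU-box GAGGAA, the core bound by the myeloid factor PU.1, here on the reverse strand as TTCCTC. Its first base in the printed strand lay 55 bases before the start in Fcgr1 and 6 bases before it in Fcgr3. In Fcgr4 the match was part of the longer GAGGAAGT, which contains GAGGAA and begins 24 bases before the start. Fcgr1 also held the gamma-activated pattern TTCNNNGAA, at 109 bases before the start, and Fcgr4 held the interferon-stimulated element (GAAA repeated after a gap of 2 bases), at 73 bases. Across 32851 RefSeq windows searched on both strands, GAGGAA occurred in 23.3%, GAGGAAGT in 2.44%, TTCNNNGAA in 7.02% and the interferon-stimulated element in 2.98%. The PU-box was present in 5 of the 9 genes with a window, the others being Trem2 and Syk, and the E-box CACGTG (6.02% of all windows) was present in Plcg2 only. These 9 genes had 11 windows, and a gene counts if any of its windows matched, whereas the shares are per window. Syk matched in window 2 and not in window 1. Fcgr2b, Fcgrt and Fcer1g held none of the searched motifs. A match is a string of letters and not a measured binding site.

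Library totals ran from 2963094 to 21422738 counts in the plasma-negative group and from 9421708 to 20562689 in the plasma-positive group. The smallest total belonged to plasma-negative replicate 4. Counts made up 68.9 to 74.6% of the read total behind the authors' RPKM in the plasma-negative and 81.4 to 84.2% in the plasma-positive libraries, so this share separated the groups and differences in RPKM run higher than those in CPM; its part in the results was not tested. Counts were scaled to CPM, counts scaled to a common library size with TMM factors, and tested with edgeR's quasi-likelihood test in 13277 genes with enough counts, where a call means a Benjamini-Hochberg adjusted p under 0.05. Of these, 112 genes were called higher and 75 lower in plasma-positive microglia. The split depended on the scaling: it was 64 higher and 163 lower with library totals only, where the median of all genes shifted to -0.11 on the log2 scale, and 388 higher and 59 lower on log2(RPKM + 1), where the median was 0.11. The summed CPM of 10 microglial markers was 67573 to 80195 in the plasma-negative and 75285 to 81248 in the plasma-positive libraries, with 2 of the 10 called higher. Plasma-positive replicate 3 stood apart, with 959 CPM over 8 neutrophil markers (S100a8 at 300, Ngp at 430) against at most 2.10 CPM in any other library, and with 53.1 CPM over 8 monocyte markers against at most 14.9. Neutrophils and monocytes also carry Fc receptors, so the called genes and Fcgr4 are given below with and without that library. Without it, the log2 differences of the others were 0.22 for Fcgr1, 0.22 for Fcgr3, 0.54 for Fcgrt, 0.50 for Plcg2, 0.09 for Trem2 and -0.13 for Syk, none called by edgeR, and the RPKM ratios printed below kept their direction and their overlap or separation. Plasma-positive replicate 2 was highest for 8 neuronal markers, at 270 CPM against at most 66.8 elsewhere, and for 8 oligodendrocyte markers, at 560 CPM. The oligodendrocyte sum was higher in the plasma-positive group as a whole, at 224 to 560 CPM against 158 to 230 CPM, with 1 marker (Mal) called higher. Sums over 8 markers were at most 7.80 CPM for natural killer cells, 4.97 for T cells, 5.58 for mast cells and 16.5 for border macrophages, and the B cell sum of 30.2 to 94.5 CPM came almost wholly from Cd79b. The part of these other cells in the results was not tested beyond leaving libraries out.

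All 10 genes passed the expression filter. Fcgr2b, Fcer1g and Tyrobp were called higher in plasma-positive microglia (adjusted p 0.00974 to 0.0414 by edgeR) and none was called lower, against 1.41% of all tested genes called in either direction and 0.844% called higher. In 7 of the 10, every plasma-positive library was above every plasma-negative library, against 5.68% of all tested genes (4.59% were lower in this way, and 10.3% separated in either direction). Without plasma-positive replicate 3, 2 of the 10 were called against 0.673% of genes, and without plasma-negative replicate 4 it was 4 against 1.45%. DESeq2 called 5 of the 10, against 5.45% of genes. The median difference over the 10 genes was 0.47 on the log2 scale, against 0.01 over all tested genes. The 10 genes had a median exon length of 2345.5 bases, against 3975.5 over all tested genes. Shorter genes tended to have higher differences, as described further on, and the part of length in this median was not tested. In bulk samples such as these, fewer cells expressing a gene and less of its RNA per cell cannot be told apart.

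**Figure D1:**
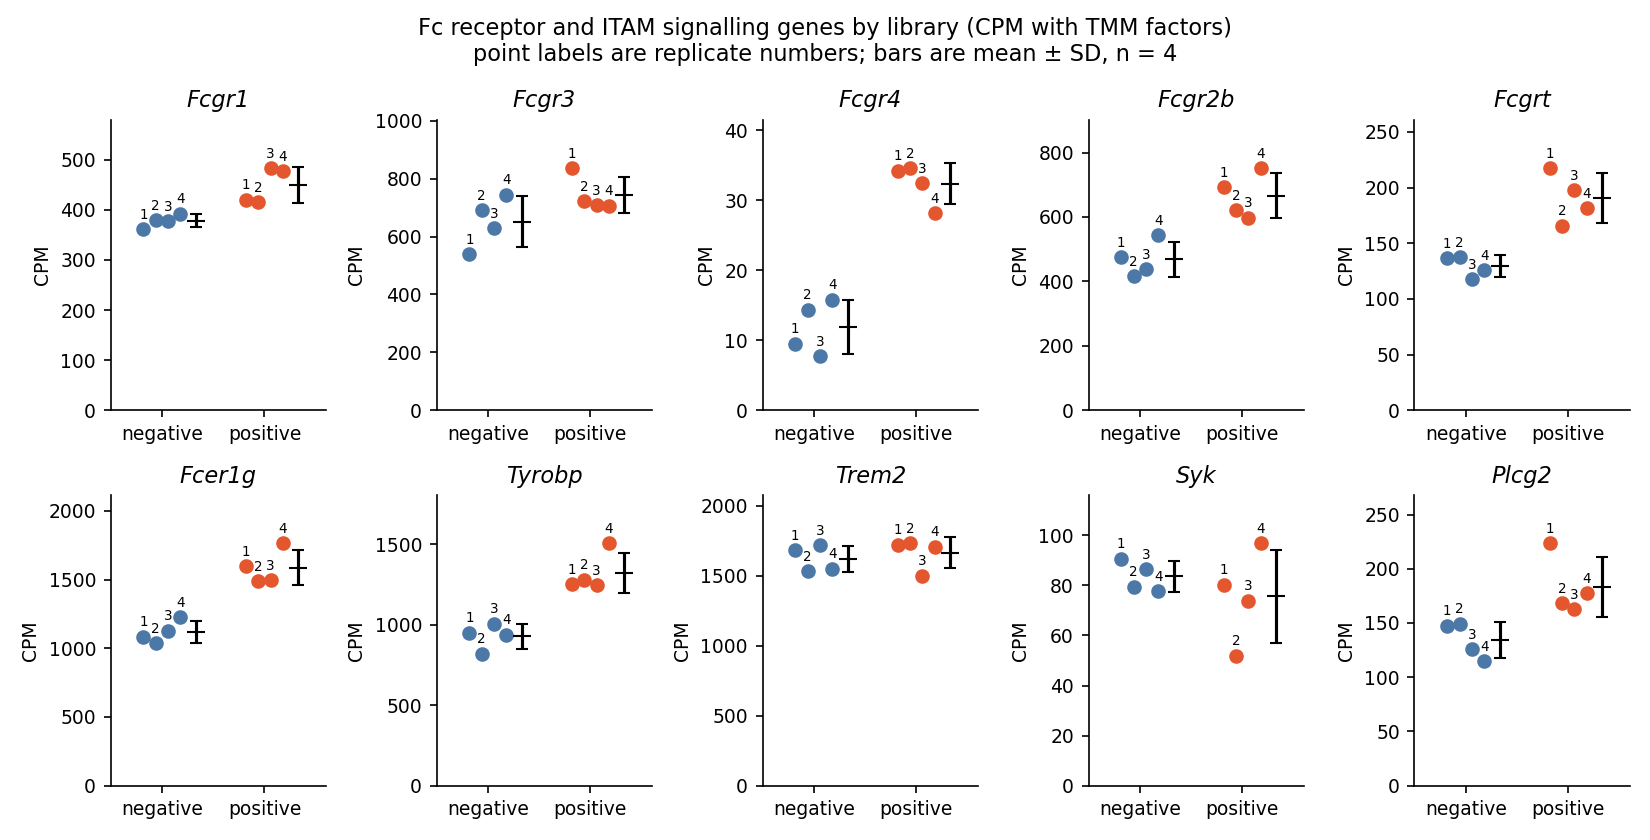
CPM (vertical axes, each from 0) of the 10 genes in each library, with replicate numbers above the points and the mean ± SD of 4 libraries as bars. The groups do not overlap for Fcgr1, Fcgr4, Fcgr2b, Fcgrt, Fcer1g, Tyrobp and Plcg2, and they overlap for Fcgr3, Trem2 and Syk.

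Among the activating IgG receptors, Fcgr4 differed most between the groups and was the least abundant. Fcgr4, which binds the IgG2 subclasses, was at 9.52, 14.4, 7.69 and 15.8 CPM in plasma-negative replicates 1 to 4 and at 34.2, 34.6, 32.5 and 28.2 CPM in plasma-positive replicates 1 to 4. The groups did not overlap: the lowest plasma-positive library was at 28.2 CPM and the highest plasma-negative library at 15.8. The raw counts behind these values were 47 to 228 in the plasma-negative and 252 to 681 in the plasma-positive libraries. The mean was 11.8 ± 3.86 CPM (SD, n = 4) against 32.4 ± 2.96 CPM (SD, n = 4), a fold change of 2.76 with a 95% interval from 1.68 to 4.54. With an adjusted p of 0.0523 by edgeR, this change just missed the threshold. It passed when plasma-negative replicate 4, the shallowest library, was left out (log2 difference 1.62, adjusted p 0.0472 by edgeR), and it passed under 6 of 14 other settings with all libraries. Without plasma-positive replicate 3 the log2 difference was 1.46, close to the full value, with an adjusted p of 0.122 by edgeR.

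Fcgr1, the high-affinity receptor for monomeric IgG, was at 361, 380, 378 and 393 CPM in the plasma-negative libraries and at 420, 416, 484 and 478 CPM in the plasma-positive libraries. The ranges were separate but close, with 393 CPM as the highest plasma-negative and 416 CPM as the lowest plasma-positive value. The log2 difference was 0.25 (SE 0.09, 95% interval 0.05 to 0.45), and its adjusted p of 0.232 by edgeR did not pass. Fcgr1 was called under 2 of 14 other settings with all libraries, the RPKM scales (adjusted p 0.0401 and 0.0399 by limma). With length and GC correction its difference was 0.08. Fcgr3, the low-affinity activating receptor, was at 540, 692, 628 and 745 CPM in the plasma-negative and 837, 722, 708 and 707 CPM in the plasma-positive libraries. Plasma-negative replicate 4 was above 3 of the 4 plasma-positive libraries, so the groups overlapped. The log2 difference of Fcgr3 was 0.19 (SE 0.11, 95% interval -0.04 to 0.42, adjusted p 0.476 by edgeR), which leaves room for no change and for a rise of up to 1.34-fold.

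The inhibitory receptor Fcgr2b rose. Its values were 475, 416, 438 and 543 CPM in the plasma-negative and 692, 621, 597 and 752 CPM in the plasma-positive libraries, with no overlap. The mean went from 468 ± 55.7 CPM (SD, n = 4) to 666 ± 70.1 CPM (SD, n = 4), a fold change of 1.42 (log2 difference 0.51, SE 0.11) with an adjusted p of 0.0414 by edgeR. The call was close to the threshold: leaving out plasma-negative replicate 1, 2 or 3, or any of the plasma-positive libraries, raised the adjusted p to as much as 0.116 and ended it, and leaving out plasma-negative replicate 4 lowered it to 0.0260. Without plasma-positive replicate 3 the log2 difference was 0.56 (adjusted p 0.0593 by edgeR). With all libraries, Fcgr2b was called under 10 of 14 other settings. It was not called with relative log expression scaling (adjusted p 0.0566 by edgeR) or library totals only (log2 difference 0.40, adjusted p 0.0753 by edgeR). Fcgr2b, Fcgr3 and Fcgr4 are related genes at chr1:170958617-171064935, and whether reads from stretches they share were split or dropped is not given in the sources used here, so their individual counts carry that uncertainty.

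To set activating against inhibitory receptors within a library, RPKM values were used, which scale reads by exon length and by the read total and allow levels of different genes to be added. The summed RPKM of Fcgr1, Fcgr3 and Fcgr4 was 5.59, 7.75, 6.79 and 6.32 times that of Fcgr2b in plasma-negative replicates 1 to 4. It was 5.62, 5.63, 6.01 and 4.73 times that of Fcgr2b in plasma-positive replicates 1 to 4. The activating transcripts together were above the inhibitory transcript in all 8 libraries. The mean ratio was 6.61 ± 0.908 (SD, n = 4) in plasma-negative and 5.50 ± 0.544 (SD, n = 4) in plasma-positive microglia, with overlapping ranges, since plasma-negative replicate 1 lay below 3 of the 4 plasma-positive libraries. The log2 difference of the ratio was -0.26 and was not tested, with log2 SDs of 0.20 (plasma-negative) and 0.15 (plasma-positive). Without plasma-positive replicate 3 it was -0.31, still with overlap. Length correction, described further on, moved the gaps between single receptors: the difference of Fcgr1 minus that of Fcgr2b went from -0.26 to -0.47 on the log2 scale, that of Fcgr3 minus Fcgr2b from -0.32 to -0.56, and that of Fcgr4 minus Fcgr2b from 0.96 to 0.71. With the length of each gene's longest coding transcript in place of its merged exons, the ratio was 4.87 ± 0.683 and 4.03 ± 0.402 (SD, n = 4 each).

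Within the receptor pool, the share of Fcgr4 separated the groups and the other 3 shares overlapped; the shares were not tested. Fcgr4 took 1.52 ± 0.380% of the summed RPKM of the 4 IgG receptors in plasma-negative and 3.48 ± 0.358% in plasma-positive microglia (SD, n = 4 each), with no overlap. The inhibitory share from Fcgr2b was 13.3 ± 1.57% against 15.5 ± 1.38%, and these ranges overlapped. Fcgr3 remained the most abundant IgG receptor, with 61.2 ± 2.55% and 57.6 ± 2.68% of the pool, and Fcgr1 held 24.0 ± 1.63% and 23.4 ± 2.36%. Both overlapped between the groups. Fcgr4 was also higher relative to the inhibitory receptor: the ratio of Fcgr4 to Fcgr2b was 0.117 ± 0.0364 in plasma-negative microglia against 0.227 ± 0.0383 in plasma-positive microglia, without overlap.

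**Figure D2:**
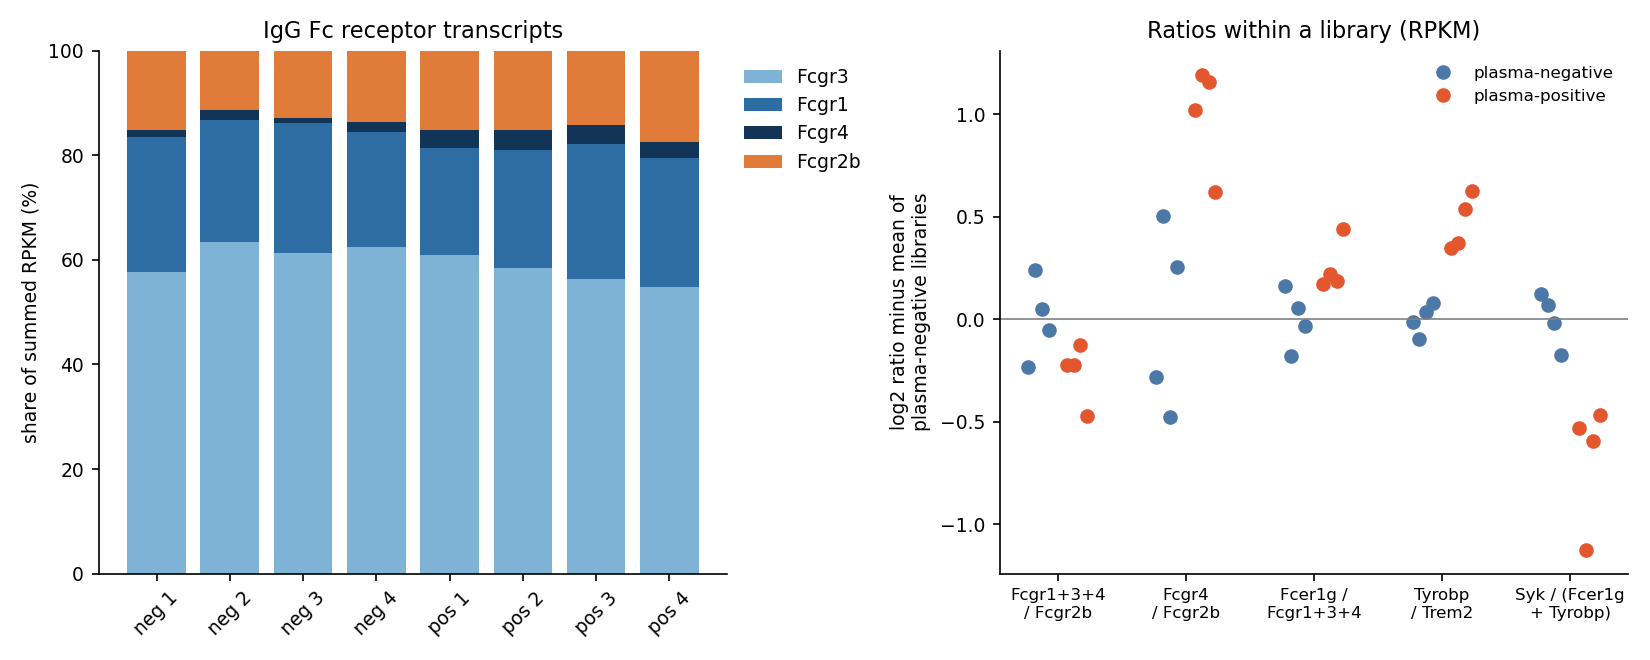
Left: share of the summed RPKM (%) taken by each IgG receptor gene in each library (neg, plasma-negative; pos, plasma-positive), where Fcgr4 goes from 1.52% to 3.48% on average. Right: log2 ratios within each library, relative to the mean of the plasma-negative libraries, 1 point per library; the activating to inhibitory ratio overlaps between the groups and the other 4 ratios do not.

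The neonatal receptor Fcgrt (chr7:45092990-45103851) was at 137, 138, 117 and 126 CPM in the plasma-negative and at 217, 166, 198 and 181 CPM in the plasma-positive libraries. All plasma-positive values were above all plasma-negative values. The log2 difference was 0.56 (SE 0.13, 95% interval 0.27 to 0.84), and the adjusted p of 0.0596 by edgeR missed the threshold. Fcgrt was called under 4 of 14 other settings with all libraries, among them DESeq2 (adjusted p 0.00454). The FcRn heavy chain made by Fcgrt works as a pair with beta-2 microglobulin, which also serves MHC class I. B2m, the gene of that partner, rose by 0.57 on the log2 scale (adjusted p 0.0186 by edgeR). That call stayed without plasma-negative replicate 2 or 4 or plasma-positive replicate 3, and leaving out any other library ended it (adjusted p up to 0.0738 by edgeR). Its RPKM was 38.5 ± 3.08 times that of Fcgrt in plasma-negative microglia against 39.2 ± 6.96 times in plasma-positive microglia, and these ranges overlapped.

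Both ITAM adaptors rose in the counts as deposited, by nearly the same amount, and both calls ended after correction for transcript length and GC (log2 differences 0.23 and 0.21), as described further on. Fcer1g (chr1:171229572-171234365) was at 1083, 1039, 1129 and 1225 CPM in the plasma-negative and at 1598, 1488, 1495 and 1763 CPM in the plasma-positive libraries. The gap between the groups was wide compared with the spread inside them. Its mean went from 1119 ± 79.8 to 1586 ± 128 CPM (SD, n = 4 each), a log2 difference of 0.50 (SE 0.08) with an adjusted p of 0.00974 by edgeR. Fcer1g passed in all 8 fits that each left out 1 library, the only gene of the 10 to do so, and without plasma-positive replicate 3 its adjusted p was 0.0218 by edgeR.

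Tyrobp (chr7:30413760-30417585) was at 951, 821, 1006 and 937 CPM in the plasma-negative and at 1253, 1281, 1244 and 1505 CPM in the plasma-positive libraries. Again no library crossed over, and plasma-positive replicate 4 was the highest. The log2 difference was 0.51 (SE 0.09, adjusted p 0.0163 by edgeR). The call was lost, with an adjusted p of at most 0.0520, when plasma-negative replicate 1 or 2 or plasma-positive replicate 4 was left out, and it stayed without plasma-positive replicate 3 (adjusted p 0.0353 by edgeR). Tyrobp RPKM was 1.09 times that of Fcer1g in both groups. The Fc receptor gamma chain was also higher relative to the receptors it serves: Fcer1g RPKM was 2.43 ± 0.241 times the summed activating IgG receptors in plasma-negative microglia against 2.90 ± 0.262 times in plasma-positive microglia (SD, n = 4 each), with no overlap. The gap there was small, with 2.71 as the highest plasma-negative and 2.72 as the lowest plasma-positive value.

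Trem2 (chr17:48346401-48354147), a lipid and lipoprotein receptor of microglia that signals through Tyrobp, showed no such difference. It was at 1683, 1535, 1720.5 and 1552 CPM in the plasma-negative and at 1723, 1732, 1502 and 1709 CPM in the plasma-positive libraries. The ranges lay on top of each other, and plasma-positive replicate 3 was the lowest of all 8. The log2 difference was 0.04 (SE 0.07), and its 95% interval from -0.11 to 0.19 does not reach the 0.51 of Tyrobp; with library totals only, the sign turned (-0.08). The ratio of Tyrobp to Trem2 RPKM was 4.24 ± 0.219 in plasma-negative microglia against 5.89 ± 0.544 in plasma-positive microglia (SD, n = 4 each), without overlap. With length correction the difference of Tyrobp minus that of Trem2 went from 0.47 to 0.21 on the log2 scale.

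The kinase Syk (chr13:52583173-52648792), which docks on phosphorylated ITAMs, was at 90.7, 79.4, 86.5 and 77.7 CPM in the plasma-negative and at 80.2, 51.9, 73.9 and 96.7 CPM in the plasma-positive libraries. Plasma-positive microglia held both the lowest and the highest value, in replicates 2 and 4. The log2 difference of -0.15 (SE 0.20, 95% interval -0.58 to 0.29) was within the spread, and it was 0.0012 without plasma-positive replicate 2. Syk RPKM per 100 units of summed adaptor RPKM (Fcer1g and Tyrobp) was 0.335 ± 0.0295 in plasma-negative microglia against 0.212 ± 0.0400 in plasma-positive microglia (SD, n = 4 each), lower in all 4 plasma-positive libraries. That ratio sets the longest transcript against the shortest, and with length correction the difference of Syk minus that of Fcer1g went from -0.65 to -0.19 on the log2 scale. Plcg2 (chr8:117498291-117635142) was at 148, 149, 126 and 115 CPM against 223, 168, 163 and 178 CPM. These groups did not overlap, and the log2 difference was 0.44 (SE 0.15, 95% interval 0.12 to 0.76), but the adjusted p of 0.187 by edgeR did not pass.

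In the deposited RPKM, the adaptors were the most abundant of the 10 transcripts. Tyrobp led with 1018 ± 90.7 in plasma-negative and 1578 ± 116 in plasma-positive microglia, followed by Fcer1g with 937 ± 82.1 and 1446 ± 85.8 (RPKM, SD, n = 4 each). Fcgr3 (274 ± 39.6 and 342 ± 30.8) and Trem2 (240 ± 13.1 and 269 ± 18.0) came next, and Fcgr3 was above Trem2 in 7 of 8 libraries. Fcgr1, Fcgr2b, Fcgrt and Plcg2 followed in that order in every library, from 107 ± 4.90 down to 22.8 ± 2.63 RPKM in plasma-negative microglia. Fcgr4 and Syk were lowest and did not separate in plasma-negative microglia (6.91 ± 2.32 and 6.52 ± 0.448 RPKM), whereas in plasma-positive microglia Fcgr4 was at 20.6 ± 2.27 and Syk at 6.43 ± 1.45 RPKM. This order depends on the exon length used: with the longest coding transcript (1088 bases for Trem2 in place of 4946 bases of merged exons), Trem2 reached 1090.05 in plasma-negative microglia, close to Fcer1g at 1199 and Tyrobp at 1138, and Syk came above Fcgr4 in plasma-negative microglia only (11.4 against 6.91) and below it in plasma-positive microglia (11.2 against 20.6). With that length, mean Fcgr2b was below Fcgr1 in plasma-negative microglia (96.7 against 107) and above it in plasma-positive microglia (150 against 138).

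Fcgr2b, Fcgr4, Fcgr3 and Fcer1g lie within chr1:170958617-171234365, a stretch of 276 kb with 13 genes, 8 of them tested. The other 4 tested genes there were Cfap126 (log2 difference 0.01), Sdhc (0.53), Nr1i3 (0.68) and Tomm40l (0.82), and none was called. Of these, Sdhc, a subunit of the respiratory chain, was higher in all plasma-positive libraries without passing the test (adjusted p 0.290 by edgeR).

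Of 113 further genes in the lists described next, 78 were tested, 1 was called higher and 1 lower by edgeR (0.844% and 0.565% of all tested genes were), and the median difference was 0.00 on the log2 scale. In 4 of them all plasma-positive libraries were higher (Fcrls, Rac2, Cd72 and Dok1) and in 3 all were lower (among them Nfatc2 and Cd33), shares close to the 5.68% and 4.59% of all tested genes.

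Among other immunoglobulin receptors and Fc receptor-like genes, 4 of 12 were tested and none was called by edgeR. Fcrls, a microglia-enriched Fc receptor-like gene, had a log2 difference of 0.31 (adjusted p 0.0571 by edgeR) and Fcrl1 one of 0.43 (adjusted p 0.498 by edgeR). Fcrls was called under 6 of 14 other settings, among them DESeq2 (adjusted p 0.00780), and without plasma-negative replicate 4 (adjusted p 0.0278 by edgeR). Of 20 receptors that pair with Tyrobp or Fcer1g or carry part of an ITAM themselves, 3 were tested and none was called by edgeR. Siglech, a Tyrobp-coupled lectin, was at 0.13 and Clec5a, another Tyrobp partner, at -0.27. The Src and Tec family kinases and their regulators, which phosphorylate ITAMs and act beside Syk, had 11 of 15 tested and none called by edgeR (with length and GC correction 1 was, Ptprc, the CD45 phosphatase), with Lyn at 0.20.

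Downstream of Syk, 30 of 32 genes were tested. Rac2, a small GTPase of blood cells that drives actin remodelling and the phagocyte oxidase, rose from 166 ± 13.2 to 238 ± 13.7 CPM (SD, n = 4 each; log2 difference 0.53, adjusted p 0.0430 by edgeR). Nfatc2, a transcription factor activated by calcium, fell from 102 ± 15.6 to 50.7 ± 8.40 CPM (SD, n = 4 each; log2 difference -1.01, adjusted p 0.0246 by edgeR). With 1 library left out, the Rac2 call stayed only without plasma-negative replicate 4 and the Nfatc2 call only without that library or plasma-positive replicate 3. Leaving out any other library ended them, with adjusted p up to 0.128 for Rac2 and 0.0803 for Nfatc2 by edgeR. With all libraries, Rac2 was called under 6 of 14 other settings and Nfatc2 under 9. Rac2 lost its call with relative log expression scaling, library totals only or thinning, among others, and Nfatc2 on both RPKM scales and with the replicate block. Calls were absent from receptors with an inhibitory motif (21 of 22 tested, median 0.03), including Sirpa at 0.02 and Lair1 at -0.01. By edgeR, none was called either among the phosphatases and Dok adaptors that carry the inhibitory signal (9 of 12 tested, median -0.14), where Inpp5d, the SHIP1 phosphatase that Fcgr2b recruits, was at -0.30 (adjusted p 0.204 by edgeR) and Ptpn6 (SHP-1) at 0.01. The signs of Sirpa, Lair1 and Ptpn6 turned under other scalings. DESeq2 did call Inpp5d lower, by -0.33 (adjusted p 0.0382 by DESeq2), and limma on both RPKM scales called Dok1 higher.

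**Figure D3:**
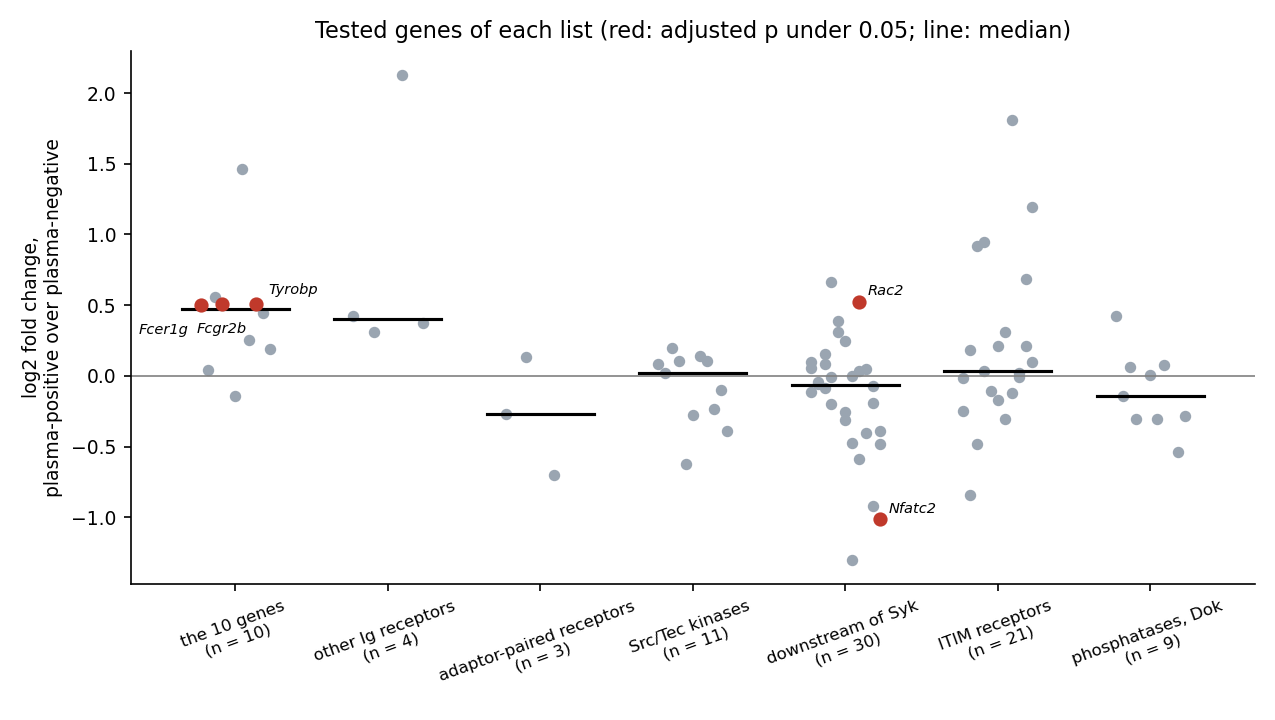
Log2 difference between plasma-positive and plasma-negative microglia (vertical axis) for the tested genes of each list, 1 point per gene, with calls in red and the median as a line. The 10 Fc receptor and ITAM genes have a median of 0.47 in the counts as deposited, and calls elsewhere are Rac2 and Nfatc2.

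Transcript length moved with the comparison. Over 5176 genes above 32 CPM, the log2 difference and exon length were correlated at -0.46 across genes (Spearman), and the difference and GC content at 0.23, with genes not being independent replicates. The 10 genes span much of that scale but are shorter at the median (2345.5 bases against 3975.5 over all tested genes). Tyrobp (667 bases of exon) and Fcer1g (874) are short, and Trem2 (4946), Fcgr2b (5790) and Syk (9362) are long. When counts were corrected for length and GC, Fcgr2b stayed at 0.55 (adjusted p 0.0462 by edgeR) and was the only one of the 10 still called, against 0.655% of all tested genes. That call rested on the form of the correction. A least-squares version, fitted on genes with a mean count of at least 50, left more of the trend. Its remaining Spearman correlations were -0.12 with length and -0.13 with GC, against -0.01 each. With that version Fcgr2b was again at 0.55, with an adjusted p of 0.0514 by edgeR, which missed the threshold. Fcer1g went to 0.23 (adjusted p 0.272 by edgeR) and Tyrobp to 0.21 (adjusted p 0.340 by edgeR), so both adaptor calls ended; with the least-squares version they were at 0.32 and 0.34, not called either. Fcgr4 remained the largest difference of the 10, at 1.26 (adjusted p 0.132 by edgeR), while Fcgr1 went to 0.08, Fcgr3 to -0.01, Fcgrt to 0.36 and Plcg2 to 0.37. B2m kept its call (0.43, adjusted p 0.0400 by edgeR), and Rac2 (0.37, adjusted p 0.221 by edgeR) and Nfatc2 (-0.79, adjusted p 0.0694 by edgeR) did not. With the least-squares version B2m was at 0.83 and Nfatc2 was called (-0.95, adjusted p 0.0438 by edgeR). With the correction and the replicate block, neither Fcgr2b (adjusted p 0.0547 by edgeR) nor B2m (adjusted p 0.0555 by edgeR) was called. The part of transcript length in the adaptor results was not tested further.

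**Figure D4:**
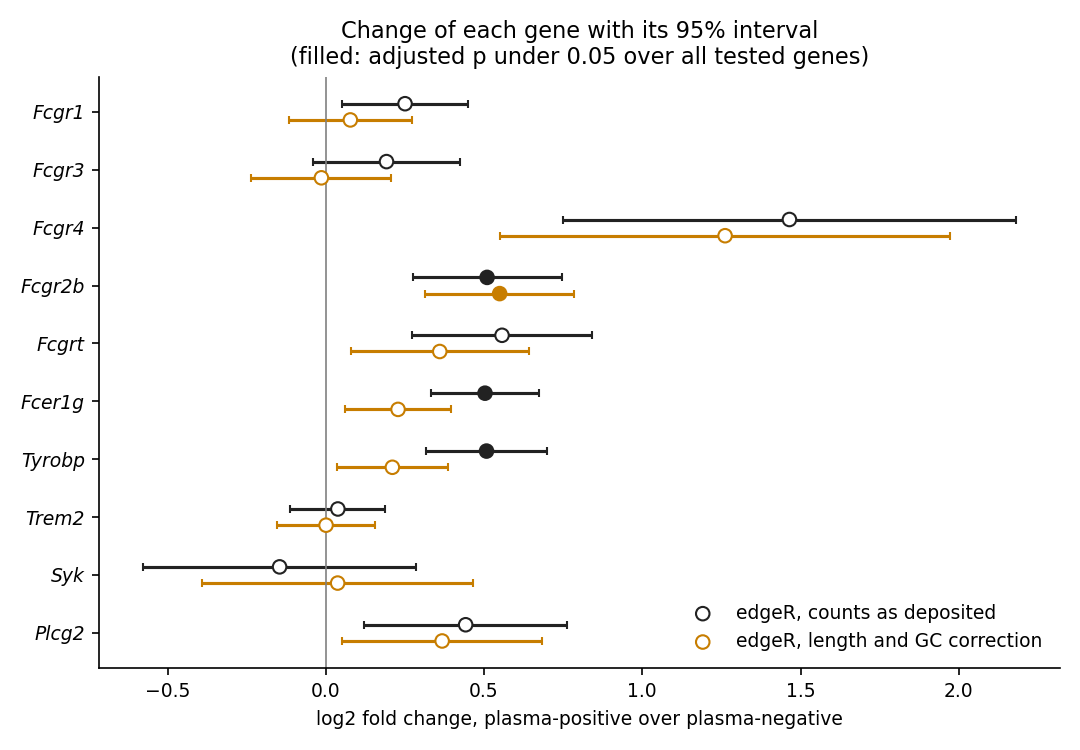
Log2 difference with its 95% interval (horizontal axis) for each gene, from the counts as deposited (black) and after length and GC correction (orange); filled circles are calls. Fcgr2b is called in both, Fcer1g and Tyrobp only in the counts as deposited, and Fcgr4 has the largest value in both.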

How the data were processed

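Microglial libraries were deposited as 2 tables, counts and RPKM, for 35583 genes. The counts are deposited read counts per gene, made with bcl2fastq, Trim Galore, STAR and HTSeq on mm10, per the submitters' processing notes. RPKM values are the authors' reads scaled by exon length and read total, and per the file headers each table also has a spread column for each library, which was not used. How strand and multiply mapped reads were treated is not given in the sources used here. Reads carry no molecular identifiers, so counts are of amplified reads and not of molecules.

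Counts were tested in R 4.3.3 with edgeR 4.0.16 (TMM, filterByExpr, quasi-likelihood test, Benjamini-Hochberg adjustment over all tested genes, threshold 0.05), plasma-positive against plasma-negative, 4 libraries each. Ratios within a library used the deposited RPKM, with means and SD and no test. Gene lengths came from GENCODE M21, in which 35546 of the 35583 identifiers were found. The correction subtracted a robust loess of the difference on length and GC, fitted on genes with a mean count of at least 300. This form of the loess was chosen after seeing the data, for the smallest remaining trend. Promoter windows came from RefSeq; Tyrobp had none. Alternatives were other scalings and filters, DESeq2 1.42.0, limma 3.58.1 (voom, and log2(RPKM + 1) or log2(RPKM + 0.1)), thinning, a replicate block and each library left out. The genes and lists were chosen with earlier results of these data known. Named were the 10 genes, B2m and, per list, the called genes of smallest p (at most 4) or, with fewer than 2 calls, the most abundant up to 2. Cfap126, Sdhc, Nr1i3, Tomm40l, Cd72, Dok1, Cd33, Ptprc and Mal were named after their values were seen. Clec7a, Sts1, Ighm and Igkc were not analysed here, and some genes of the lists are not reported here by name. The fit was tested on simulated data.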

Additional observations from a re-analysis of the deposited data

Results flagged for a closer look

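In groups of 4 libraries, 74 sets of values were checked for a highest or lowest library far from the other 3, and 4 such libraries were found, where chance gives about 5% of groups. Fcgr3 was at 837 CPM in plasma-positive replicate 1, and the nearest other plasma-positive library was at 722. Tyrobp was at 1505 CPM in plasma-positive replicate 4, with the nearest at 1281. Trem2 was low in plasma-positive replicate 3, the library with neutrophil transcripts, at 1502 CPM against 1709 in the nearest. The RPKM ratio of Fcer1g to the summed activating IgG receptors was 3.28 in plasma-positive replicate 4, with the nearest at 2.82.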

How the results depend on the processing

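The log2 differences of Fcgr1, Fcgr4, Fcgr2b, Fcgrt, Fcer1g, Tyrobp and Plcg2 kept their sign, higher in plasma-positive microglia, under every setting tried. The activating to inhibitory ratio was lower under each of its own settings. A kept sign is not a call. With length and GC correction Fcgr1 was at 0.078 (SE 0.089, adjusted p 0.821 by edgeR), a difference smaller than its SE. Fcgr1 was at 0.074 with the correction and block and at 0.075 with the least-squares version. Genes called numbered 187 in the reported fit, 172 with relative log expression scaling, 215 with upper-quartile scaling, 227 with library totals only, 211 with a filter of 1 CPM in 4 libraries, 261 with voom, 694 with DESeq2, 447 on log2(RPKM + 1), 432 on log2(RPKM + 0.1), 74 with the replicate block, 87 with length and GC correction, 18 with that correction and the block, 82 with a least-squares version of the correction added after seeing the data, and 66 to 203 with 1 library left out. Of the 10 genes, 3 were called in the reported fit, 5 with upper-quartile scaling, 2 with relative log expression scaling or library totals, 4 with a filter of 1 CPM in 4 libraries or with voom, 5 with DESeq2, 6 on either RPKM scale, 3 with the block, 1 with the correction, 0 with the correction and the block, 0 with the least-squares version and 1 to 4 with 1 library left out. The replicate numbers gave no clear pairing of the libraries. Same-numbered libraries had deviations correlated at 0.013 to 0.034 and differently numbered ones at -0.052 to 0.048, and 3 of 8 correlated best with their own number. Correlations this weak cannot decide whether positive and negative cells came from the same animals. Several small differences changed sign. With the correction, and with the correction and block, Fcgr3 was at -0.014 and -0.0081, Syk at 0.037 and 0.0013, Sirpa at -0.024 and -0.023, Lair1 at 0.14 and 0.14, and Ptpn6 at -0.16 and -0.16; Trem2 was at -0.0011 with correction and block and at -0.059 with the least-squares version. With library totals only, Trem2 was at -0.078, Sirpa at -0.10 and Ptpn6 at -0.11. Relative log expression scaling and DESeq2 gave -0.0063 for Sirpa each and -0.015 for Ptpn6 each, voom gave -0.0043 and thinning -0.011 for Ptpn6, and Lair1 was at 0.0091 with upper-quartile scaling and 0.11 on both RPKM scales. With 1 library left out, Syk ranged from -0.28 to 0.0012, Sirpa from -0.0060 to 0.032, Lair1 from -0.047 to 0.0092 and Ptpn6 from -0.044 to 0.052. The cause was not tested. In simulated counts of this depth and spread, edgeR called 0 of 195 genes changed by 0.5 on the log2 scale, 36 of 196 changed by 1 (2 false calls) and 114 of 197 changed by 2 (6 false calls). Among highly expressed genes it called 0 of 45, 31 of 45 and 45 of 45. Only 200 genes were changed at a time, with no length or GC trend, so these are not the power of the reported fit. That fit called Fcgr2b, Fcer1g and Tyrobp at differences of 0.50 to 0.51.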
